A study of Mus musculus with 16 samples.

Results

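The nuclear-encoded subunits of the oxidative phosphorylation machinery were followed in mouse embryonic stem cells (ESCs) after suppression of RAM, the activating subunit of the mRNA cap methyltransferase RNMT. The members were taken by gene symbol: the subunits of complex I (Ndufa, Ndufb, Ndufc, Ndufs and Ndufv), complex II (Sdh), complex III (Uqcr and Cyc1), complex IV (Cox4 to Cox8) and ATP synthase (Atp5), without the Ndufaf assembly factors and the symbols ending in -ps, and with a mean of at least 10 counts over the 8 input libraries. The rule gave 90 of the 46983 genes in the table. Of 109 genes with such a symbol, 8 Ndufaf and 7 -ps symbols were dropped and 4 (Cox8b, Ndufa11b, Ndufb4c and Ndufs6b) were below the minimum. By function, 36 members belong to complex I, 4 to complex II, 9 to complex III, 19 to complex IV and 16 to ATP synthase. The prefixes also took in 4 complex II assembly factors (Sdhaf1 to Sdhaf4), the supercomplex factor Cox7a2l and the ATP synthase factor B Atp5s. Complex IV is counted here with Ndufa4 and its relative Ndufa4l2, and with Cox6c2, which the annotation lists as a processed pseudogene.

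The cells were 46C ESCs of strain 129Ola, which carry GFP at the Sox1 locus. They received an siRNA against RAM (RAM siRNA) or a non-targeting siRNA (control) and were harvested 48 hr later, in 4 independent transfections per the study's methods. Each culture gave a library of cytoplasmic lysate (input) and a library of the pooled sucrose gradient fractions 17 to 22 (polysomes), so that 4 groups of 4 libraries were sequenced with 16647523 to 20147833 counts each. Ramac, which encodes RAM, had 197 to 206 counts in control input and 46 to 58 in RAM siRNA input, 27.9% of the control level after scaling, and in polysomes 17.3% (exact permutation test, two-sided, p = 0.0286 in each fraction, the smallest that 4 against 4 libraries allow). The study's supplement describes these cultures as given 1 RAM siRNA sequence, so effects of that sequence on other transcripts cannot be told apart from the loss of RAM. The 8 ESC markers were all above 1 CPM in control input, with a summed level of 4756 to 5157 CPM in control and 4044 to 4556 CPM in RAM siRNA input. The 5 fibroblast feeder markers summed to 17.9 to 20.6 CPM in control and 19.3 to 29.1 CPM in RAM siRNA input. The 5 trophectoderm markers summed to 25.7 to 32.0 and 16.8 to 25.5 CPM in the same groups. Only 3 of the feeder and 1 of the trophectoderm markers reached 1 CPM in control input. The 5 neural precursor markers summed to 73.6 to 88.3 CPM in control and 78.9 to 94.95 CPM in RAM siRNA input. For 5 primitive endoderm markers the sums were 11.8 to 12.6 and 12.45 to 14.8 CPM, and for 4 mesoderm markers 2.6 to 4.9 and 2.55 to 4.1 CPM. The part of these differences in the results was not tested. All values are relative to the library total, so that a change in the amount of RNA in all polysomes together does not appear in them.

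Oxidative phosphorylation passes electrons from NADH (complex I) or succinate (complex II) through complex III and cytochrome c to oxygen at complex IV, and ATP synthase uses the resulting proton gradient. Most subunits are encoded in the nucleus, translated in the cytoplasm and imported into mitochondria, while 13 are encoded by mitochondrial DNA and made by mitochondrial ribosomes. Some pluripotent stem cells are known for a glycolytic metabolism with immature mitochondria, although they express the respiratory subunits. The metabolism of these mouse ESCs is not measured by the libraries. Many of the nuclear-encoded subunits are very short proteins: the median coding length of the members with a reading frame was 408 bases against 1404 for all genes tested, and 74.7% of the members were under 600 bases against 12.5% of all genes tested.

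The reading frames of 3 members are shown because their transcripts were the members that were called higher after RAM suppression in input and in polysomes when the replicate number was included in the fit, and as examples of the short frames common among the members. The start and stop codons are in capitals. Uqcr11 (chr10:80404166-80406745, minus strand, 56 residues) and Uqcr10 (chr11:4702176-4704306, minus strand, 64 residues) encode small accessory subunits of complex III, and Cox6b2 (chr7:4751922-4752835, minus strand, 88 residues) encodes the testis isoform of a complex IV subunit. Coordinates are of GRCm38 and span the introns, which are removed from the sequences.
Uqcr11: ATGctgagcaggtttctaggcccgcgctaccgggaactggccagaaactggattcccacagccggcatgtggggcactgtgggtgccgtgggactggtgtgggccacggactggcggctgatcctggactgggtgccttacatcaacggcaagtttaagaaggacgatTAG
Uqcr10: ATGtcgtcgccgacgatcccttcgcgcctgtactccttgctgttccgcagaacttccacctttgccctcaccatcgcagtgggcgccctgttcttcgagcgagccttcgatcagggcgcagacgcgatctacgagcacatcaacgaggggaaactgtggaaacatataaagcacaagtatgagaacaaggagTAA
Cox6b2: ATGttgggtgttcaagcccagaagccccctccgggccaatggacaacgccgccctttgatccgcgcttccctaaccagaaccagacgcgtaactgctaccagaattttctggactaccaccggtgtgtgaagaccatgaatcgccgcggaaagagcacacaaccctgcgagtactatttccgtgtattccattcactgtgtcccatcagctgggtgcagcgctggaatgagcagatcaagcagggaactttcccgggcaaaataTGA

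Levels of different genes were compared in control input as CPM (reads scaled to a common library size) per kilobase of 1 annotated transcript. The median member of complex I was at 109.8 CPM per kb, of complex II at 90.2, of complex III at 246.5, of complex IV at 281.0 and of ATP synthase at 204.8. The highest member was Atp5b, the catalytic beta subunit of ATP synthase, at 1855 ± 153 CPM per kb (SD, n = 4), followed by Cox4i1, a subunit of complex IV, at 931.9 ± 59.1. In the isoform groups of complex IV, the form known from most tissues exceeded its tissue-restricted relative. Cox4i1 stood against 0.803 ± 0.217 CPM per kb for Cox4i2, Cox6a1 (575.3 ± 43.1) against 7.18 ± 1.79 for the muscle form Cox6a2, and Cox6b1 (318.4 ± 10.9) against 27.2 ± 1.596 for Cox6b2. Cox7a2 (281.0 ± 7.60) stood against 39.0 ± 6.17 for the muscle form Cox7a1, Cox8a (530.4 ± 30.2) against 2.23 ± 0.49 for Cox8c, and Ndufa4 (513.0 ± 17.1) against 1.27 ± 0.27 for Ndufa4l2. Each of these pairs differed by far more than the spread between libraries. Of the 3 genes for the same subunit c of ATP synthase, Atp5g3 was highest (351.5 ± 7.49), then Atp5g2 (107.3 ± 4.08) and Atp5g1 (53.3 ± 1.93), the last over an annotated transcript of 4715 bases, whose length lowers this value. In CPM without division by length, Atp5g3, Atp5g2 and Atp5g1 were at 251.0, 78.5 and 251.5, so their order depends on the transcript chosen. Between 29 members and other genes at least one 75-base stretch of transcript was shared, and for 12 members over 20% of such stretches, among them Atp5g2 (86.9%), Cox7c (50.4%) and Uqcrb (29.1%), so the counts of these depend on how reads with several matches were handled. Exons of 5 members overlap another gene on the same strand and those of 30 on the opposite strand.

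The first comparison asks which subunit transcripts depend on RAM for their level in the cytoplasm. The answer depended on whether the replicate number was included in the fit. Without it, most did not pass the test, and the 3 that did were lower and belong to complex I. These 3 were the accessory membrane arm subunit Ndufc2 and the iron-sulfur cluster subunits Ndufs1 and Ndufs7 of the arm that takes electrons from NADH. With the replicate number in the fit, 15 members were lower (17%) and 5 higher (5.68%), and they were not confined to complex I. Of all genes tested, 19% were lower and 20.3% higher in that fit. The fit without the replicate number is described first. Of the 90 members, 88 passed the filter on low counts (1 CPM or more in 10 or more libraries). In the quasi-likelihood test of edgeR (Benjamini-Hochberg adjusted p under 0.05 over 12805 genes), 3 of the 88 were lower (3.41%) and 0 were higher. Over all genes tested, 5.94% were lower and 6.95% higher, so the share of members called was below the background in both directions. At an unadjusted p under 0.05 there were 11 members lower and 1 higher, 12 of 88 beside 3591 of 12805 genes tested. DESeq2 called 7 members lower and 1 higher, and its share over all genes is not given here. The median log2 change of the members was -0.01 (quartiles -0.09 and 0.06) against 0.00 for all genes (quartiles -0.13 and 0.15).

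Ndufc2 had 158.8, 156.1, 172.0 and 161.1 CPM in control input replicates 1 to 4 and 100.3, 91.3, 118.9 and 98.9 CPM in RAM siRNA input. The groups did not overlap, and the log2 change was -0.66 (standard error 0.08, edgeR adjusted p = 0.000546). Ndufs1, the largest core subunit of complex I, had 270.3, 258.6, 291.9 and 248.5 CPM in control input. In RAM siRNA input it had 206.1, 184.7, 217.6 and 201.1 CPM, again below every control library, a log2 change of -0.40 (standard error 0.08, edgeR adjusted p = 0.00623). Ndufs7 had 38.1, 39.8, 36.4 and 43.2 CPM in control and 29.95, 30.2, 31.1 and 34.9 CPM in RAM siRNA input. Its groups did not overlap, with a log2 change of -0.32 (standard error 0.08, edgeR adjusted p = 0.0221). The call of Ndufs7 was lost when RAM siRNA replicate 1 or 2 or control replicate 1, 2 or 4 was left out (edgeR adjusted p of 0.0522 to 0.0743). In a fit of all 16 libraries, which share an estimate of the spread with the polysome libraries, none of the 3 was called (adjusted p of 0.476 for Ndufc2, 0.624 for Ndufs1 and 0.864 for Ndufs7). Exons of Ndufs1 overlap those of Eef1b2 and Ino80dos on the opposite strand, and the 3′ UTR of Ndufs1 holds the word ACTATCA. The word was chosen because earlier results of these data tied it to falls in input. It is in the 3′ UTR of 614 of 11957 genes tested (5.14%) and of 1 other member, Ndufb2. The median log2 change of the 614 genes in input was -0.13, which is not independent of that choice. The part of the overlap or of the word in the result was not tested.

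**Figure D1:**
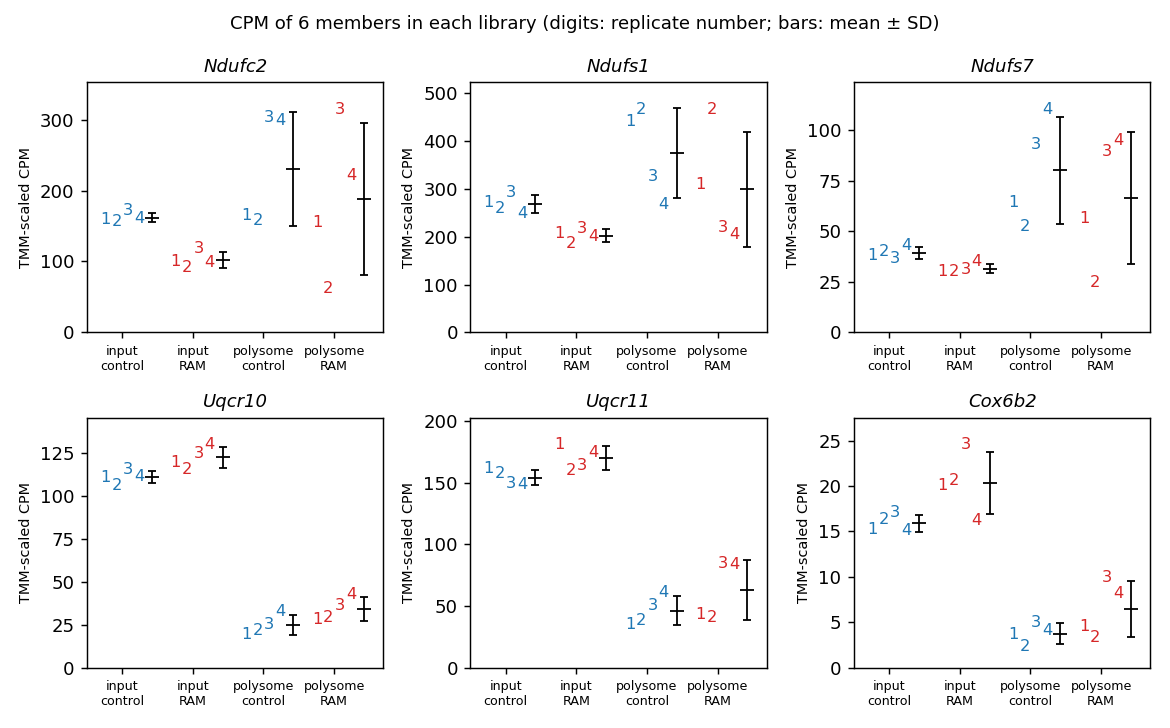
CPM of Ndufc2, Ndufs1, Ndufs7, Uqcr10, Uqcr11 and Cox6b2 in each of the 16 libraries, scaled by TMM within each fraction (y axis, linear from 0). Digits are replicate numbers in control (blue) and RAM siRNA (red) libraries and bars the mean ± SD (n = 4). In input the red digits of the upper 3 genes lie below all blue ones, while in polysomes the groups of all 6 genes overlap although Uqcr10, Uqcr11 and Cox6b2 are higher with RAM siRNA in every pair.

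Libraries with the same replicate number deviated together from their group means, so each comparison was also fitted with the replicate number as a block. With the block, 15 members were lower (17%) and 5 higher (5.68%) in input, where 19% of all genes tested were lower and 20.3% higher. The share of members lower was then close to the background and the share higher was below it. The additional lower members were Sdhb, the iron-sulfur subunit of complex II, at -0.21 (standard error 0.05, edgeR adjusted p = 0.00154), and Sdhc, one of its membrane anchors, at -0.16 (adjusted p = 0.0163). In complex IV Cox5a was lower by this fit, at -0.20 (standard error 0.04, adjusted p = 0.000627), and in complex III Uqcrb, at -0.20 (standard error 0.04, adjusted p = 0.00084). The other additional lower members included the complex I subunits Ndufa6, Ndufa8, Ndufb3, Ndufb4 and Ndufs4 and the ATP synthase subunits Atp5j and Atp5g3, at -0.13 to -0.19. The 5 higher members were Cox6b2 at 0.35 (standard error 0.08, adjusted p = 0.00103), and Ndufab1, the mitochondrial acyl carrier protein, Uqcr10, Uqcr11 and Cox6a1 at 0.14 to 0.16 (adjusted p of 0.0128 to 0.0176).

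In the libraries themselves, Cox5a had 410.5, 402.7, 403.5 and 396.3 CPM in control input and 354.2, 336.5, 355.9 and 356.1 CPM in RAM siRNA input. Cox5a is a nuclear-encoded subunit of complex IV, and its groups did not overlap. Cox6b2 had 15.2, 16.3, 17.1 and 15.1 CPM in control input and 20.01, 20.6, 24.6 and 16.2 CPM in RAM siRNA input, where replicate 4 lay within the range of the control. Uqcr10 had 110.7, 106.5, 115.4 and 111.7 CPM in control and 119.7, 115.8, 124.9 and 130.1 CPM in RAM siRNA input, without overlap. Over the 88 members, RAM siRNA libraries lay below all control libraries for 13 (14.8%) and above all of them for 2 (2.27%), Uqcr10 and Cox7a2. Over all genes tested these shares were 8.91% and 9.11%. With the block, leaving out replicate 4 from both groups gave 25 members lower and 4 higher, leaving out replicate 1 gave 9 and 3, and leaving out replicate 2 gave 8 and 5. Shares of all genes called in these fits are not given here, so the counts are not shown to be particular to the members.

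**Figure D2:**
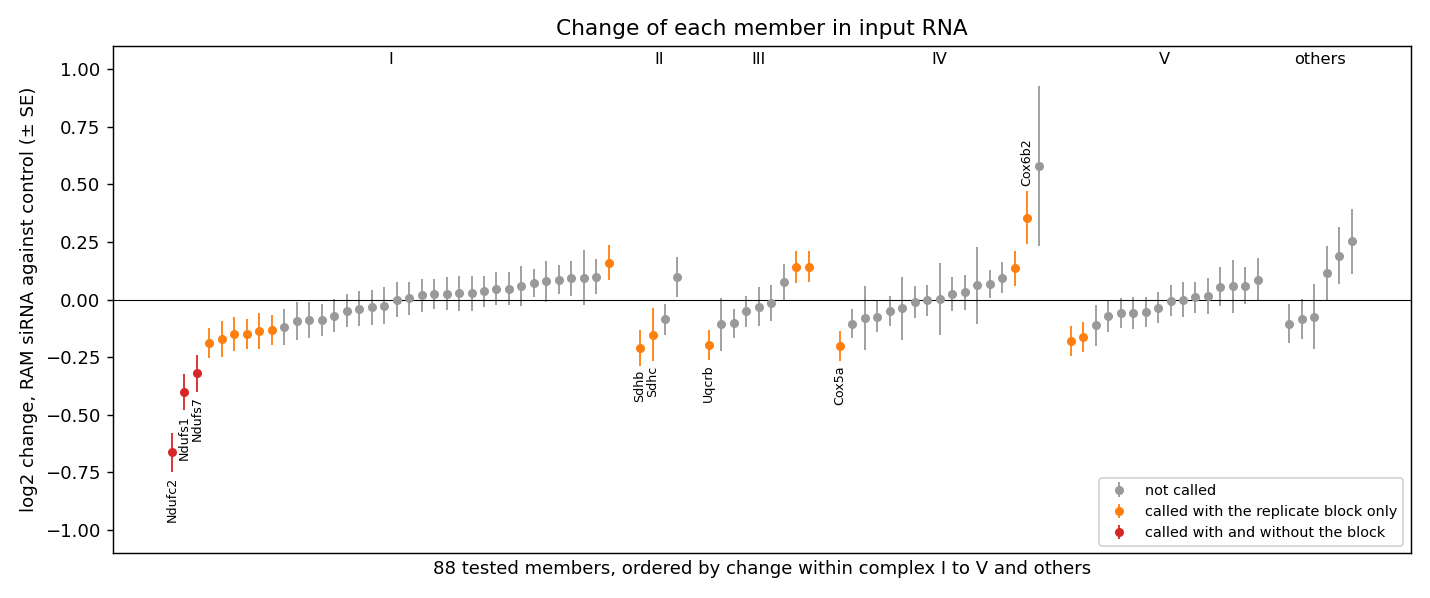
Log2 change of the 88 tested members in RAM siRNA against control input (y axis, points with standard errors from the fit without block), ordered within complexes I to V and others. Red points were called with and without the replicate block, orange points with the block alone and grey points in neither fit. Names are given for 8 members described singly. Ndufc2, Ndufs1 and Ndufs7 are the 3 red points, and most members lie within 0.2 of zero.

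By complex, the median log2 change in input was -0.01 for complex I, -0.12 for complex II, -0.03 for complex III, 0.00 for complex IV and -0.02 for ATP synthase. The catalytic and core subunits of complexes I to III and ATP synthase did not move as one. Ndufs3 (0.00, standard error 0.07), Ndufs8 (0.03, standard error 0.07), Ndufv1 (0.08, standard error 0.09) and Ndufv2 (-0.03, standard error 0.08) of the complex I core were not called in either fit, beside the falls of Ndufs1 and Ndufs7. Sdha, the flavin subunit of complex II, was at 0.10 (standard error 0.09) and Sdhd at -0.08 (standard error 0.07), neither called. Cyc1 (-0.10, standard error 0.06) and the Rieske protein gene Uqcrfs1 (-0.11, standard error 0.12) of complex III, Atp5a1 (0.06, standard error 0.08) and Atp5b (0.09, standard error 0.09) were not called in either fit. Nor was Cox4i1 (0.03, standard error 0.08), which like Cox5a is a nuclear-encoded subunit of complex IV outside its catalytic core.

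The tissue-restricted isoforms were at low levels. Cox8c, a testis form of a complex IV subunit, did not pass the filter, with 15, 18, 17 and 23 counts in control input and 38, 41, 25 and 45 counts in RAM siRNA input. The groups did not overlap, and in a fit without the filter, over 28462 genes, it rose by 1.06 on the log2 scale (standard error 0.25, edgeR adjusted p = 0.00264, and 5.76e-06 with the block). Cox4i2, the other member under the filter, had 8 to 14 counts in control and 10 to 19 in RAM siRNA input and was not called (log2 change 0.63, standard error 0.34, edgeR adjusted p = 0.322). Ndufa4l2 had 15, 24, 22 and 24 counts in control and 29, 13, 55 and 26 in RAM siRNA input, overlapping groups (0.58, standard error 0.35, adjusted p = 0.31). Cox6a2 (0.06), Cox7a1 (-0.08) and Cox7b2 (-0.04) were not called in input in either fit.

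Gene lists around the subunits were described in the same way, beside 5.94% of all genes lower and 6.95% higher in input, or 19% and 20.3% with the block. Of 41 assembly factors tested, 5 were lower and 2 higher (median 0.04), and 6 and 8 with the block. The lower ones included Coa5, a complex IV assembly factor, at -0.96 (standard error 0.08, edgeR adjusted p = 6.13e-05), Tmem70, which assists ATP synthase assembly, at -0.91 (standard error 0.08, adjusted p = 8e-05), and Cox20 at -0.65 (standard error 0.12, adjusted p = 0.00584). Of 15 genes for coenzyme Q synthesis and cytochrome c, 2 were lower and 3 higher, with Coq3 at -1.16 (standard error 0.09, adjusted p = 2.91e-05) and Coq8a at 0.83 (standard error 0.16, adjusted p = 0.00604) as the extremes, and with the block 2 were lower and 4 higher. Of 18 regulators of mitochondrial biogenesis, 2 were lower, Gabpa, the DNA-binding subunit of nuclear respiratory factor GABP, at -0.51 (standard error 0.08, adjusted p = 0.00128) and Tfb1m at -0.38 (standard error 0.10, adjusted p = 0.0255). None of the 18 was higher in this fit, while with the block 4 were lower and 6 higher, so that the balance of directions depended on the block. Of 18 genes of the TCA cycle and pyruvate dehydrogenase, 1 was higher, Suclg2, and with the block 2 were lower and 6 higher. Of 77 mitochondrial ribosomal proteins, 6 were lower and 4 higher (median -0.03), and 23 and 6 with the block. Of 87 cytosolic ribosomal proteins 1 was lower and 0 higher (median -0.03), and 7 and 1 with the block. Of the 13 mitochondrially encoded subunits, 7 passed the filter, with a median log2 change of 0.20. Among these mt-Nd2 was called without the block, at 0.42 (standard error 0.08, adjusted p = 0.00716), and 5 of the 7 were called higher with it.

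Words of factors known to act on respiratory genes were counted in promoters, as a description of the sequence. RefSeq promoter windows of 250 bases before to 50 bases after the start (GRCm38.p6) were found for 70 of the 90 members and 9736 genes tested, and were searched on both strands. The 10-base NRF1 word was in windows of 19 members (27.1%) and of 11.8% of genes tested, the ETS word CCGGAAG, which GABP can bind, in 27.1% and 20.6%, and the YY1 word AANATGGNG in 22.9% and 9.51%. No word can lie within another. Over all 32851 windows the shares were 4.6%, 8.86% and 6.08%. At least 1 of the 3 words was in windows of 44 members (62.9%) and of 36% of genes tested. One member window held all 3, that of Atp5k, the gene of ATP synthase subunit e, and it is shown for that reason, with the NRF1, ETS and YY1 words in capitals in this order and the ETS word read on the opposite strand (chr5:108434350-108434649, minus strand). The windows of Ndufc2, Uqcr10 and Cox6b2 held none of them, and that of Uqcr11 held the ETS word.
Atp5k promoter: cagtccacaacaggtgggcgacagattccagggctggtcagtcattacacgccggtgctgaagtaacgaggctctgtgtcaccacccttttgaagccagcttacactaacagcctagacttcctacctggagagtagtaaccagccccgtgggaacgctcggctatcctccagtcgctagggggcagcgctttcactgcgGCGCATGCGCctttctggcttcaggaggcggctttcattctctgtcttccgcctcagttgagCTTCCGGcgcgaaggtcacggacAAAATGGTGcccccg

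The second comparison asks how the subunit transcripts are spread between polysomes and input in control cells. The members split by coding length: short reading frames were depleted from the pooled polysome fractions and long ones enriched. Of the 88 members, 29 were lower in polysomes than in input (33%) and 32 higher (36.4%, edgeR adjusted p under 0.05), against 34.3% and 33.1% of all genes tested. With the replicate block, 30 were lower and 31 higher, against 37.2% and 35.1% of all genes. The 3 classes of coding length were set after the values were seen. Of the 24 members under 300 bases, 21 were lower and 0 higher, with a median log2 ratio of -1.45. Of the 41 from 300 bases to below 600, 7 were lower and 11 higher (median 0.11). Of the 22 with 600 bases and over, 0 were lower and 21 higher (median 1.28).

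The lowest members were Cox7c, a complex IV subunit, at a log2 ratio of -2.09 (standard error 0.16, edgeR adjusted p = 1.1e-06), Uqcr10 at -2.06 (standard error 0.16), Cox6b2 at -1.98 (standard error 0.19) and Atp5e, the epsilon subunit of ATP synthase, at -1.97 (standard error 0.28). Uqcr10 had log2 ratios of -2.29, -2.14, -2.07 and -1.63 in control cultures 1 to 4. Ndufc1 (-1.89), Atp5mpl (-1.84), Atp5k (-1.78), Cox8a (-1.76), Cox6c (-1.68) and Uqcr11 (-1.63) followed. Among the highest were Uqcrc1, a core protein of complex III, at 1.59 (standard error 0.14), and Ndufa9 at 1.56 (standard error 0.12). Uqcrc1 had log2 ratios of 1.72, 1.67, 1.63 and 1.46 in the 4 cultures, so that the spread between cultures was small beside the distance from Uqcr10. Uqcrc2 (1.46), Ndufv1 (1.41), Atp5b (1.41), Ndufs8 (1.34), Atp5c1 (1.33), Ndufa10 (1.32), Atp5a1 (1.32), Uqcrfs1 (1.29) and Atp5f1 (1.27) were also high. Exceptions to the order by length included Ndufv3 (1404 coding bases), at 0.15 (standard error 0.14, adjusted p = 0.364), and the short Cox7b2 (246 bases), at 0.25 (standard error 0.22, adjusted p = 0.334). Subunits of the same complex were thus spread over the whole range, from -2.06 to 1.59 in complex III and from -1.97 to 1.41 in ATP synthase. In complex IV, 11 of 17 were lower and 1 higher, and in complex II all 4 subunits were higher.

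**Figure D3:**
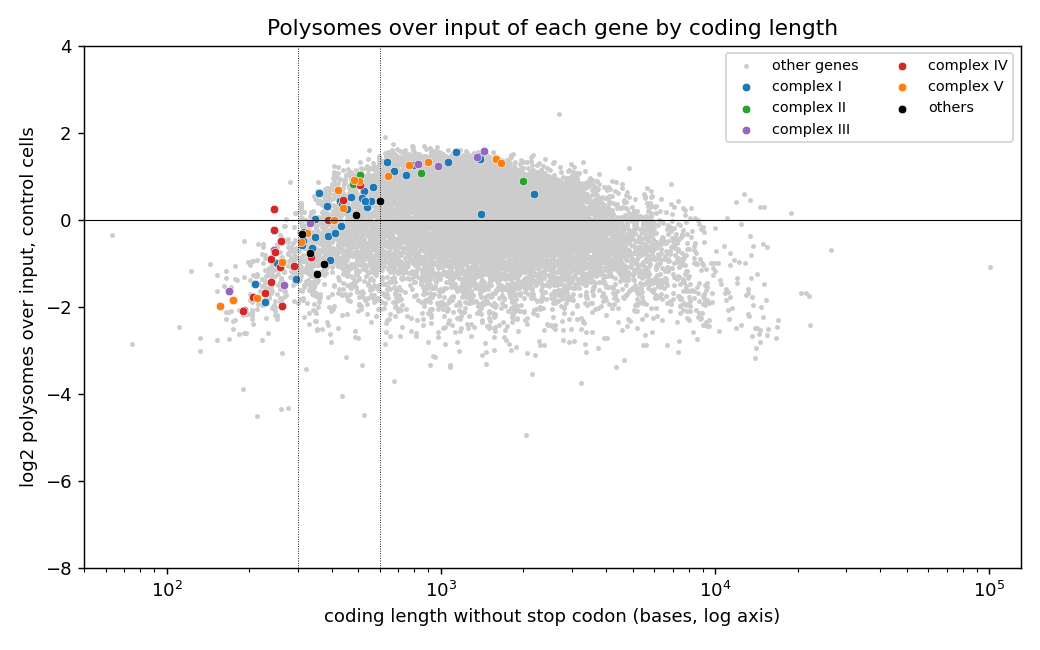
Log2 ratio of polysomes to input in control cells (y axis, fitted over 4 cultures) against coding length in bases (x axis, logarithmic) for the 87 tested members with a reading frame (coloured by complex) and all other genes tested (grey). Dotted lines mark 300 and 600 bases. Members rise from near -2 at the shortest frames to 1.59 for Uqcrc1 (1440 bases), and the longest frames, of Sdha (1992 bases) and Ndufs1 (2181 bases), lie lower.

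Across the 87 members with a reading frame, the log2 ratio and the log2 coding length had Pearson's r = 0.85 and Spearman's rho = 0.91, as a description across genes that share the same libraries. Across all 12128 genes with a reading frame r was -0.13 and rho -0.17, and the longest frames had low ratios again. Genes of the same length class had medians of -1.37 under 300 bases, -0.21 from 300 bases to below 600 and 0.07 at 600 bases and over. In the shortest class 89.3% of all genes were called lower and 0.444% higher. In the middle class 38.6% of all genes were called lower and 20.1% higher, beside 7 and 11 of the 41 members. In the longest 36.1% of all genes were called higher and 31.3% lower, beside 21 and 0 of the 22 members. Other lists were not split by coding length. In these, 16 of 18 genes of the TCA cycle and pyruvate dehydrogenase were higher and 0 lower (median 1.20). Of 77 mitochondrial ribosomal proteins, 43 were higher and 11 lower (median 0.59). The cytosolic ribosomal proteins were at -0.12 in the median, with 26 of 87 lower and 24 higher. All 7 mitochondrially encoded subunits tested, which are translated inside mitochondria, were lower, with a median of -2.80.

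The ratios were not the same in every culture. For members from 300 bases to below 600 the median log2 ratio was -0.24, -0.39, 0.45 and 0.61 in control cultures 1 to 4, and 0.03, -0.82, 0.90 and 0.69 in RAM siRNA cultures 1 to 4. Cultures 1 and 2 were thus lower than 3 and 4 in both treatments, and RAM siRNA culture 2 was the lowest. All genes of this class followed, with -0.43, -0.53, -0.06 and 0.20 in control and -0.26, -0.87, 0.23 and 0.32 in RAM siRNA cultures. For members of 600 bases and over the median stayed between 1.07 and 1.40 in control cultures, with 0.79 in RAM siRNA culture 2 and 1.27 to 1.44 in the other RAM siRNA cultures.

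**Figure D4:**
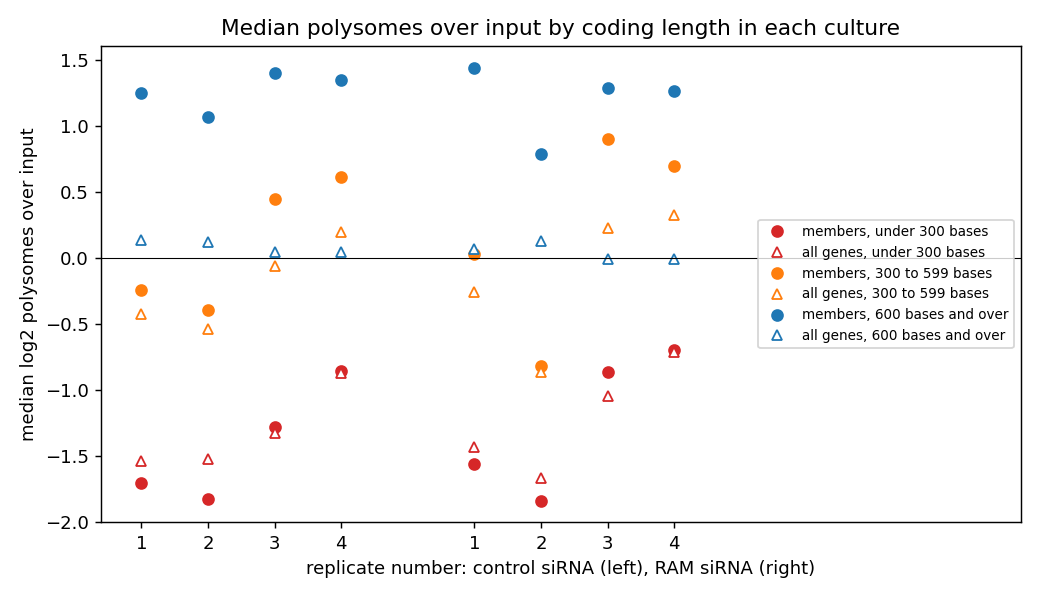
Median log2 ratio of polysomes to input (y axis) in each of the 4 control and 4 RAM siRNA cultures (x axis, by replicate number), for members (filled circles) and all genes tested (open triangles) in 3 classes of coding length. The short and middle classes lie lower in replicates 1 and 2 than in 3 and 4, and RAM siRNA replicate 2 has the lowest medians of members in each class.

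The third comparison asks whether RAM suppression changed the subunit transcripts in polysomes. No member passed the test without the block. The values of 64 of the 88 members were higher in 3 of 4 pairs of cultures, and in pair 2 most were lower. In edgeR without the block, 0 of 88 members were called lower or higher, 0 had an unadjusted p under 0.05, and DESeq2 called 0. Ramac, the targeted gene, was not called in polysomes by this edgeR fit either (log2 change -2.52, adjusted p = 0.128). In input its edgeR adjusted p was 7.24e-06. Over all genes, 0.0234% were lower and 0% higher, and 1152 had an unadjusted p under 0.05. The median log2 change of the members was 0.20 (quartiles 0.07 and 0.33) against 0.06 for all genes tested (quartiles -0.12 and 0.25), and 76 members had a positive change. The groups overlapped for all 88 members. By pair of same-numbered libraries the median change of the members was 0.29, -0.39, 0.35 and 0.22, with 78, 14, 75 and 73 of the 88 members higher. For all genes tested these medians were 0.02, 0.00, 0.05 and 0.00. Shares of all genes with overlapping groups, or higher in a pair, are not given here. The counts of members are therefore not shown to be particular to them.

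With the replicate block, 6 members were higher in polysomes (6.82%) and 0 lower, against 9.68% and 4.97% of all genes tested. Cox6a2 had 0.886, 1.19, 3.21 and 3.51 CPM in control polysomes and 2.12, 1.47, 8.37 and 5.57 CPM in RAM siRNA polysomes, a rise in 4 of 4 pairs, at 0.95 (standard error 0.20, edgeR adjusted p = 0.00505). The counts behind this gene were 18 to 65 in control and 27 to 161 in RAM siRNA libraries. Cox6b2 had 3.69, 2.29, 4.93 and 4.15 CPM in control and 4.59, 3.33, 9.93 and 8.15 CPM in RAM siRNA polysomes, at 0.74 (standard error 0.16, adjusted p = 0.00653). Uqcr10 had 19.4, 21.4, 25.5 and 32.7 CPM in control and 28.0, 29.2, 36.5 and 42.7 CPM in RAM siRNA polysomes, higher in every pair though the groups overlap, at 0.47 (standard error 0.11, adjusted p = 0.00791). Sdhaf3, a complex II assembly factor, was at 0.55 (standard error 0.16, adjusted p = 0.0283), Ndufa1, a small subunit of complex I, at 0.43 (standard error 0.12, adjusted p = 0.0283), and Uqcr11 at 0.40 (standard error 0.12, adjusted p = 0.0352). Of these 6, 5 had coding lengths under 300 bases. Ndufs1, the lowest by p, was at -0.37 (standard error 0.12, adjusted p = 0.057) and lower in 4 of 4 pairs, though by less than 0.01 in pair 2.

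**Figure D5:**
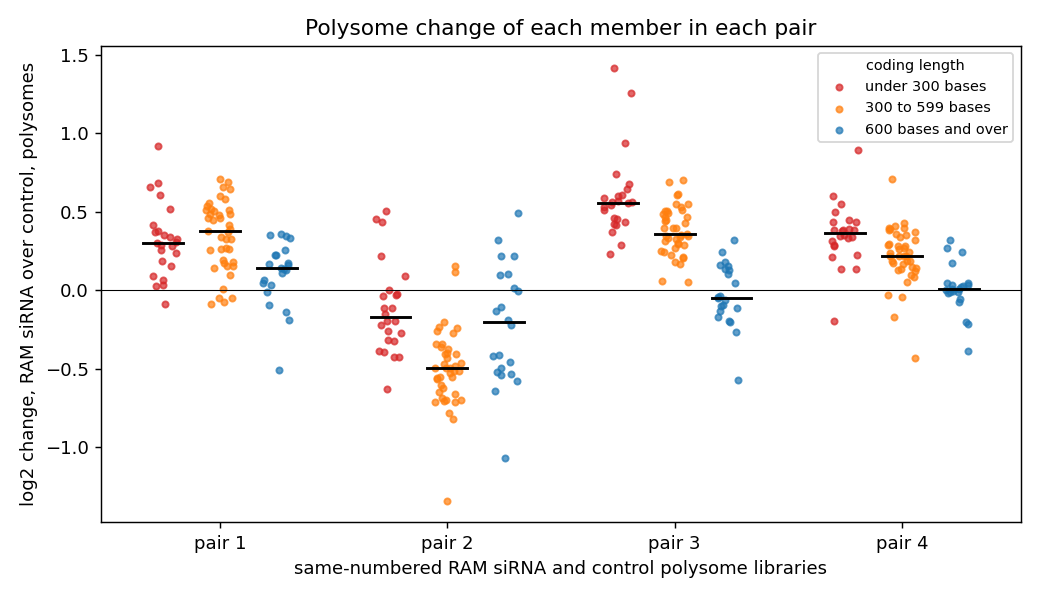
Log2 change in polysomes of each tested member with a reading frame (points) between same-numbered RAM siRNA and control libraries (y axis), for pairs 1 to 4 and 3 classes of coding length (x axis), with class medians as black lines. Medians under 300 bases are 0.30, -0.17, 0.56 and 0.36, and at 600 bases and over 0.14, -0.20, -0.05 and 0.01.

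The number of members called depended on 1 pair. Replicate 2 was the pair that moved against the others, and leaving it out was a choice made after its values were seen. With the block, this gave 58 members higher (65.9%) and 1 lower, Ndufs1. In the same fit 21.3% of all genes tested were higher and 14.3% lower. In pair 2 the median change was -0.39 for the members and 0.00 for all genes. The choice itself thus raises the count of members, so the shares without replicate 2 are a description and not an independent comparison with all genes. Leaving out replicate 1, 3 or 4 in the same way gave 2 members higher each, and 1 lower without replicate 3. The shares of all genes called in those fits are not given here. Without replicate 2, the members called higher were 22 of 24 under 300 bases, 32 of 41 from 300 bases to below 600 and 4 of 22 at 600 bases and over, and the medians were 0.42, 0.34 and 0.04. All genes of these classes had 50.2%, 47.2% and 18.1% called higher, with medians of 0.29, 0.25 and -0.01. By complex, 15 of 17 members of complex IV, 25 of 36 of complex I, 10 of 16 of ATP synthase, 5 of 9 of complex III and 1 of 4 of complex II were higher. Cox7a2 was at 0.61 (standard error 0.08, edgeR adjusted p = 4.85e-06), with 69.0, 73.4, 133.4 and 141.0 CPM in control and 109.0, 56.0, 213.6 and 199.5 CPM in RAM siRNA polysomes. Among the other lists, 49 of 87 cytosolic ribosomal proteins, 33 of 77 mitochondrial ribosomal proteins and 1 of 18 genes of the TCA cycle and pyruvate dehydrogenase were higher in this fit.

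The difference between both fractions, the change of polysome loading, was tested as an interaction of fraction and siRNA. None of the 88 members was called with or without the block by edgeR, 0 had an unadjusted p under 0.05, and DESeq2 called 0. Over all genes tested 0% were called in either fit, and 100 had an unadjusted p under 0.05 without and 262 with the block. The median over members was 0.20 against 0.00 for all genes, with 73 members positive. By length class the medians of the members were 0.28, 0.20 and -0.02 from short to long, and those of all genes 0.17, 0.12 and -0.01. The smallest p among members with a positive change was that of Cox6a2, at 0.88 (standard error 0.63, edgeR adjusted p = 0.9997), and among those with a negative change that of Atp5s, at -0.31 (standard error 0.26, adjusted p = 0.9997). With a block within each fraction, 0.0156% of all genes and 0 members were called. Without replicate 2, left out after its values were seen, this fit called 15 members higher (17%) and 0 lower, against 0.547% and 0.804% of all genes tested. By length class from short to long, 25%, 22% and 0% of the members were higher, against 4.44%, 3.25% and 0.123% of all genes. Leaving out the pair in which most members were lower in polysomes raises their count, so these shares are a description only. The 15 were Cox5b, Cox6a1, Cox6a2, Cox7a2, Cox7b, Cox7c and Ndufa4 of complex IV, Ndufa1, Ndufa7, Ndufb4, Ndufb6, Ndufb11, Ndufc2 and Ndufs4 of complex I and Uqcrb of complex III. Cox7a2 was at 0.49 (standard error 0.09, adjusted p = 0.00712), Ndufb4 at 0.52 (standard error 0.10, adjusted p = 0.00718) and Ndufc2 at 0.42 (standard error 0.10, adjusted p = 0.0348). For Ndufc2 this stood beside the lower level in input, while its change in polysomes was -0.16 in the fit without replicate 2 (standard error 0.09, adjusted p = 0.176). Of the 15, 0 had 600 coding bases or more. Leaving out replicate 1, 3 or 4 in this fit gave 0 members.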

How the data were processed

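RNA was sequenced from 16 libraries. According to the study's methods the authors mapped the reads to GRCm38 (mm10) with STAR 2.5.1b and deposited whole-number counts per Ensembl gene from htseq-count, the unit used here; whether strand was used in counting is not given in the sources used here. Of 46983 genes, 46488 were matched to a symbol and 495 were not, and 0 columns belonged to other samples. Genes with at least 1 CPM in at least 10 libraries (12805) were scaled by TMM and tested in edgeR 4.0.16 (R 4.3.3; quasi-likelihood, adjusted by Benjamini-Hochberg, threshold 0.05). Input and polysome comparisons used the 8 libraries of their fraction, the ratio in control cells its 8 libraries and loading all 16. DESeq2 1.42.0 was an alternative. Fits were also run on simulated counts with known changes. These had a fixed spread and no deviations shared by same-numbered libraries, so they do not show how the fits behave on the real libraries. Printed CPM were scaled by TMM within a fraction. Per-culture log2 values carry a pseudocount of 0.5 CPM. Deviations of same-numbered libraries from their group means correlated at 0.31 to 0.64 between control and RAM siRNA input, 0.54 to 0.90 between polysomes and 0.24 to 0.65 between input and polysomes, and the 4 transfections were made on separate occasions, so the replicate number was taken to pair libraries. The named genes were Ramac, core and isoform subunits, and per comparison the members called with the smallest p (up to 8 a direction without and 5 with the block; otherwise the smallest p). One item is not reported here. The members and lists were chosen with earlier results of these data known.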

Additional observations from a re-analysis of the deposited data

Results flagged for a closer look

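In 5 of 104 groups of 4 libraries, checked for 26 named members, 1 library lay apart from the other 3 (gap over range above 0.829, Dixon's 95% critical value). Chance gives such a gap in about 1 in 20 groups. In input, Cox5a was at 336.5 CPM in RAM siRNA replicate 2 against 354.2 to 356.1 in the others. Cox6a2 was at 6.698 CPM in control input replicate 3 against 4.091 to 4.414. Atp5s was at 7.173 CPM in control input replicate 1 against 5.727 to 5.897. In polysomes, Atp5c1 was at 414.0 CPM in RAM siRNA replicate 2 against 708.5 to 758.2, and Uqcrc2 at 616.9 CPM in control replicate 4 against 875.3 to 898.4.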

How the results depend on the processing

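In input, 3 members were lower and 0 higher. The counts were 15 and 5 with the replicate block, 7 and 1 with DESeq2, 10 and 3 with DESeq2 and the block, and 0 and 0 with all 16 libraries in 1 fit. Without the filter on low counts, and with filterByExpr, 1 member was higher. Leaving out 1 library gave 2 to 10 members lower, 10 without RAM siRNA replicate 4, and 0 to 1 higher. With the block, leaving out a replicate number, a choice made after seeing the data, gave 8 to 25 lower (9 without replicate 1, 8 without 2, 12 without 3 and 25 without 4) and 3 to 5 higher. Shares of all genes called in these input fits are not given here. In polysomes, 0 members were called. The replicate block gave 6 higher, DESeq2 with the block gave 1 lower and 5 higher, and the block without a replicate number gave 0 to 1 lower and 2 to 58 higher, 58 without replicate 2. For DESeq2 with the block, and for the block without replicate 1, 3 or 4, the shares of all genes called in polysomes are not given here. For loading, the block within each fraction without a replicate number gave 0 to 15 higher, 15 without replicate 2, and the other alternatives gave 0. For polysomes against input all counts stayed within 1.5 times the reported ones (24 to 36 lower and 27 to 41 higher). The median of the members ranged from -0.04 to 0.01 in input, 0.02 to 0.44 in polysomes, 0.01 to 0.42 for loading and -0.11 to 0.21 for polysomes against input. Among the members, the block changed no other call in the comparisons of RAM siRNA with control or in loading, and moved the counts of polysomes against input to 30 lower and 31 higher. The cause of these differences was not tested. Members near the filter rest on few counts.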
